A study of Mus musculus with 2 samples.

Results

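The miR-23, miR-27 and miR-24 miRNAs come from 2 clusters of 3 hairpins each, and they were followed here in the small RNA of fetal mouse liver. Members were all rows of the miRNA class whose name begins with mmu-mir-23a, mmu-mir-23b, mmu-mir-27a, mmu-mir-27b or mmu-mir-24, locus and arm endings allowed, which gave 5 miRNAs under 11 names of the 358 miRNAs and 597 names in the table. One library came from wild type B6/129 mice and 1 from B6/129 mice with Ago2ADH, an Argonaute 2 without catalytic activity, both taken at stage E18.5. Both were made from a 19 to 30 nt gel fraction of fetal liver total RNA. How many livers went into each library is not given in the labels. With 1 library per genotype no difference below was checked against replicates, and p-values are not given. All intervals are 95% intervals of counting error only and hold no spread between livers or libraries. The reads carry no molecular identifiers, so copies of 1 molecule are counted as separate reads, which the intervals do not cover.

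A miRNA hairpin is cut by Drosha and then by Dicer into a duplex of 2 arms, of which the guide arm is kept by an Argonaute protein and the passenger arm is mostly lost. Bases 2 to 8 of the guide, the seed, pair with target mRNAs. The clusters are paralogs, and each is transcribed as 1 long primary RNA. In fetal liver the miR-23b cluster has been tied to TGF-beta and BMP signalling through Smad mRNAs, and in red cell precursors miR-24 has been tied to the activin receptor Acvr1b. miR-23 and miR-27 are also known from endothelial cells.

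On chromosome 8 (GRCm38, plus strand) Mir23a lies at 84208518 to 84208592, Mir27a at 84208672 to 84208758 and Mir24-2 at 84208815 to 84208921, all within 404 bases. Mir23a and Mir27a overlap no other annotated gene, while the last bases of Mir24-2 overlap the first exon bases of the long noncoding RNA Gm26532 (84208920 to 84209609). On chromosome 13 (plus strand) Mir23b lies at 63300484 to 63300557, Mir27b at 63300712 to 63300784 and Mir24-1 at 63301208 to 63301275, within 792 bases inside the gene 2010111I01Rik. There Mir23b is intronic, Mir27b overlaps an exon of a transcript annotated for nonsense-mediated decay, and Mir24-1 overlaps exons of such a transcript, of a retained-intron transcript and of a processed transcript. Fancc runs across the same place on the minus strand.

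The guide arms that carry the results are shown first, as RNA with the seed in capitals, from RefSeq for GRCm38. They are 3p arms, as is miR-23b-3p.
miR-23a-3p: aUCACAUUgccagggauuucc
miR-27a-3p: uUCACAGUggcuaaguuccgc
miR-27b-3p: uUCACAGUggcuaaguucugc
miR-24-3p: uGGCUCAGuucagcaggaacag
Counted from 1 at the 5′ end, miR-27a-3p and miR-27b-3p differ only by C19U and share a seed. Within the seed, miR-23a-3p and miR-27a-3p differ by U7G alone. miR-24-3p has an unrelated seed, and its guide is the same from both loci. The 5p arms of the 2 miR-24 loci do differ, at 5 of 22 positions compared from the 5′ end without gaps, and are shown because they tell the loci apart.
miR-24-2-5p: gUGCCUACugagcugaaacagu
miR-24-1-5p: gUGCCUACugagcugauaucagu

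The wild type library held 7599870 reads, 2808232 of them miRNA reads, and the Ago2ADH library 7046197 and 2811227. miRNA levels are given as reads per 1000000 miRNA reads (RPM) and mRNA fragments per 1000000 reads of all classes. Fragments of erythroid mRNAs summed to 1942 in wild type and 1267 in Ago2ADH over 20 of 22 listed genes with reads. Of the 18 erythroid genes tested, 9 had log2 intervals below 0 and 1 above, where 7.17% of all 5913 genes tested had one below 0 and 15.1% one off 0 in either direction. Spna1, the erythroid alpha spectrin, fell from 125 to 50 reads. Ahsp, and Eraf, its older symbol, had no reads. Hepatocyte fragments summed to 14953 and 15397 over 20 of 20 genes, of which 9 had intervals below 0 and 4 above. Endothelial fragments summed to 70.1 and 74.7 over 16 of 16 genes, with 8 tested and none off 0. Stellate and stromal fragments summed to 58.6 and 54.1 over 12 of 12 genes, with 2 of 7 tested below 0 and none above, and the collagen gene Col1a2 fell from 42 to 19 reads. Myeloid and megakaryocyte fragments summed to 151 and 139 over 17 of 18 genes, with 2 of 9 tested below 0 and none above. Marker miRNAs are scaled to another total, so their sums cannot be set directly against the mRNA sums. Summed RPM in wild type and Ago2ADH was 10801 and 13549 for endothelial, 6284 and 6963 for stromal, 12165 and 14463 for myeloid and 386003 and 424755 for hepatocyte miRNAs. The log2 ratios of these sums were 0.33, 0.15, 0.25 and 0.14, where the median of all miRNA arms was 0.15. The 3 erythroid miRNA arms summed to 123384 and 12919 RPM. Of their reads, miR-451-5p gave 326796 of 346491 in wild type and 4368 of 36319 in Ago2ADH (log2 ratio -6.23). miR-144-3p rose (1.28) and miR-486-5p was at -0.36. The fall of this sum thus lay mostly in miR-451-5p, and it is not read as an amount of erythroid cells. In bulk liver RNA, fewer cells of a type and less RNA per cell cannot be told apart. The part of these marker differences in the values below was not tested.

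The 5 miRNAs made up 1.24% of the miRNA reads in wild type (1.22 to 1.25) and 1.35% in Ago2ADH (1.34 to 1.36). These were 34756 and 37955 reads of 205 distinct sequences that matched a member hairpin. Of the 10 arms, 6 had 100 or more reads over both libraries. An arm was called when its ratio of Ago2ADH to wild type was 0.5 or less, or 2 or more, with an interval that excluded 1. None of the 6 was called, against 6.52% of the 353 miRNA arms tested. Intervals excluded 1 for 4 of the 6, against 68.3% of all arms. Their median log2 ratio was -0.05, and the median over all 353 arms was 0.15. The members' median turned to 0.06 when reads were scaled to all reads of the library. With the 10 most abundant arms left out of the scaling it was -0.25, and that of all arms -0.05.

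miR-27 was the seed family that stood higher in Ago2ADH. miR-27a-3p had 2248 reads in wild type (801 RPM) against 3496 in Ago2ADH (1244 RPM), for a log2 ratio of 0.64 (0.56 to 0.71) or 1.55-fold. Scaled to miRNA reads, it was the 1 member that met a limit of 1.5-fold, which 16.7% of all tested arms met on the higher side. miR-27b-3p had 10671 reads (3800 RPM) and 13824 reads (4917 RPM), giving a log2 ratio of 0.37 (0.34 to 0.41). Of the arms tested, 84.7% had a lower ratio than miR-27a-3p and 72.8% a lower ratio than miR-27b-3p. Both stayed above 0 under each scaling tried, miR-27a-3p between 0.43 and 0.75 and miR-27b-3p between 0.17 and 0.48. At the lower end of its range miR-27a-3p was under 1.5-fold.

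The flanking guides did not share that difference. miR-23a-3p had 4226 reads in wild type (1505 RPM) and 4165 in Ago2ADH (1482 RPM), giving a log2 ratio of -0.02 (-0.08 to 0.04) that was 0.09 when scaled to all reads. miR-23b-3p had 4368 and 3915 reads (1555 and 1393 RPM), giving a log2 ratio of -0.16 (-0.22 to -0.10). miR-24-3p, the most abundant member in wild type, had 13088 and 12415 reads (4661 and 4416 RPM), giving a log2 ratio of -0.08 (-0.11 to -0.04) that was 0.03 when scaled to all reads. All 3 lay under the median of all arms.

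**Figure D1:**
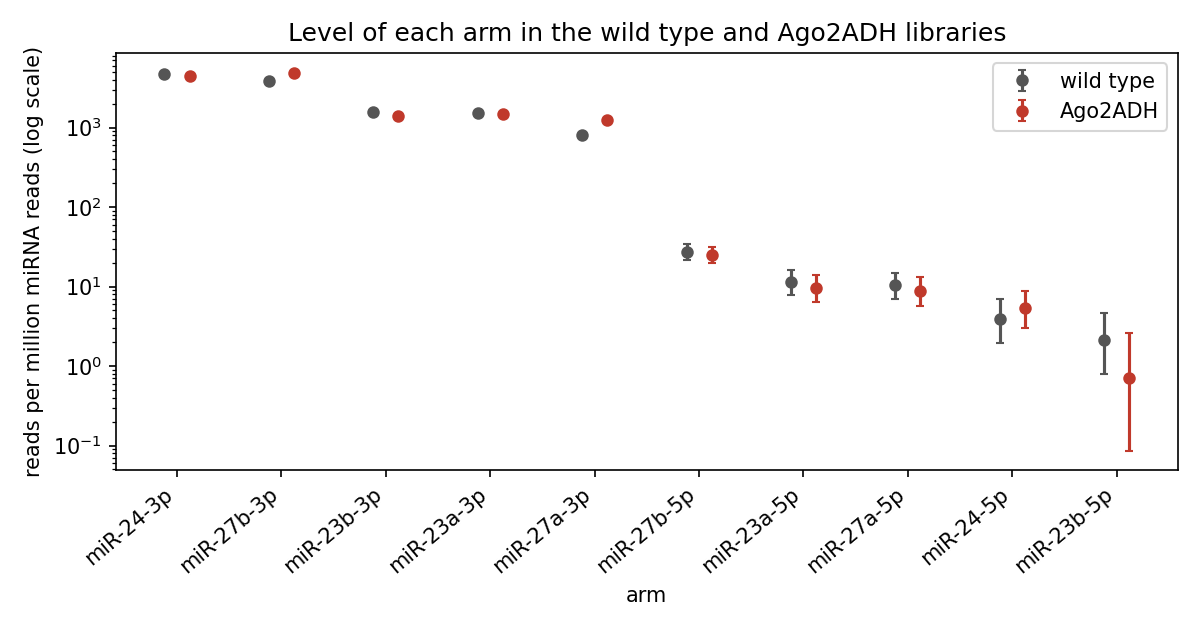
Level of each member arm in RPM on a log axis, with 95% counting intervals, for the wild type library (grey) and the Ago2ADH library (red). The 5 guide arms lie between 801 and 4917 RPM and the 5p arms at 27.4 RPM or less, and of the 5 guide arms miR-27a-3p and miR-27b-3p are higher in Ago2ADH, with intervals that do not overlap.

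The members' order by level was read in each library. In wild type it ran from miR-24-3p through miR-27b-3p, miR-23b-3p and miR-23a-3p to miR-27a-3p. The counting intervals of miR-23b-3p (1510 to 1602 RPM) and miR-23a-3p (1460 to 1551 RPM) overlapped, so counts by name do not order these neighbours. Without reads that occur in both hairpins, miR-23a-3p had 4226 wild type reads and miR-23b-3p 3754. The a copy was then 53.0% (51.9 to 54.1) of the 2. In Ago2ADH it ran from miR-27b-3p (4836 to 5000 RPM) through miR-24-3p (4339 to 4494 RPM), miR-23a-3p and miR-23b-3p to miR-27a-3p. There the intervals of miR-23a-3p and miR-23b-3p met at 1437 RPM, and miR-23b-3p includes the short reads that occur in both hairpins. These orders hold for reads without an added 3′ base. With such tailed reads, described further on, miR-24-3p led in both libraries, with 22179 reads against 12239 of miR-27b-3p in wild type and 21309 against 16073 in Ago2ADH. In Ago2ADH miR-23b-3p (5765 reads) then stood above miR-23a-3p (5283 reads), with reads that occur in both hairpins again counted for miR-23b-3p. The arms next to the members in wild type level gave a measure of the background. miR-27a-3p lay between miR-324-5p, which rose by 1.17 on the log2 scale, and miR-298-5p at 0.14. miR-27b-3p lay between miR-191-5p at 0.26 and miR-30e-5p at 0.68. miR-24-3p lay between miR-433-3p at 0.33 and miR-30d-5p at 0.23. miR-23b-3p had miR-410-3p above it, at -0.10, and miR-335-5p lay between miR-23b-3p and miR-23a-3p, at 0.06. Below miR-23a-3p came miR-339-5p at -0.10. Ratios of the size seen for miR-27 were thus also measured for arms of like abundance outside these clusters.

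**Figure D2:**
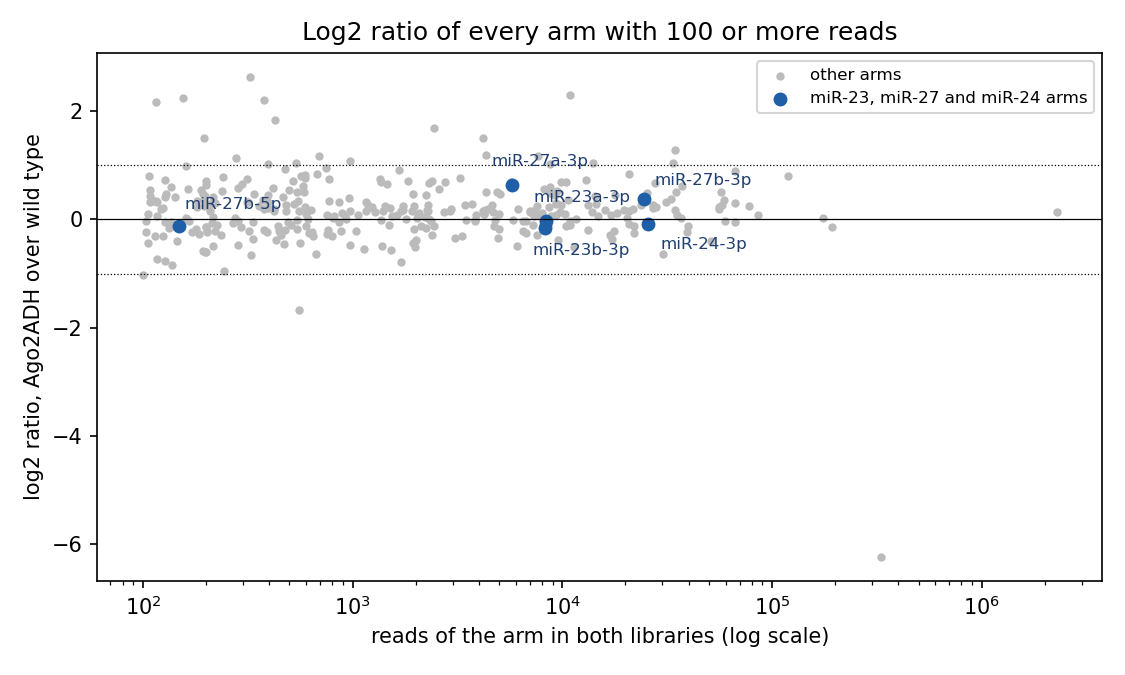
Log2 ratio of Ago2ADH to wild type against the reads of both libraries (log axis) for the 353 arms with 100 or more reads, with the 6 member arms in blue and dotted lines at 2-fold. The members lie inside the 2-fold lines, with miR-27a-3p at 0.64 and miR-23b-3p at -0.16 at the ends of their range.

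Guides of 1 cluster were then set against each other, a comparison chosen after their levels were seen. Such ratios do not depend on the scaling, because both are read from the same library. For these ratios, reads that occur in both paralogous hairpins were left out. In the chromosome 8 cluster there were 0.532 reads of miR-27a-3p per read of miR-23a-3p in wild type and 0.839 in Ago2ADH, for a log2 change of 0.66 (0.56 to 0.76). In the chromosome 13 cluster there were 2.78 reads of miR-27b-3p per read of miR-23b-3p in wild type and 3.90 in Ago2ADH, for a log2 change of 0.49 (0.41 to 0.56). The miR-24-3p to miR-23a-3p ratio was 3.10 and 2.98, and its log2 change of -0.06 had an interval (-0.13 to 0.02) that held 0. The miR-24-3p to miR-23b-3p ratio was 3.49 and 3.58 (0.04, interval -0.04 to 0.11). The middle hairpin's guide was thus higher relative to the first hairpin's guide in both clusters, while the ratio of miR-24-3p, which both clusters share, to either miR-23 guide had an interval that held 0. Against miR-24-3p, miR-27a-3p changed by 0.71 (0.63 to 0.80) and miR-27b-3p by 0.45 (0.40 to 0.50).

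Such differences within clusters were common in these libraries. Over 224 pairs of major arms from hairpins within 10000 bases of each other on 1 strand, each with 1000 or more reads, 27.7% changed by 0.5 or more on the log2 scale with an interval off 0. Reads shared by paralogs were kept in these pairs, unlike in the ratios above, and 6 of the pairs are of members. Counted in this way miR-27b-3p over miR-23b-3p changed by 0.53 and met the 0.5 limit, which its 0.49 without shared reads did not. miR-24-3p over miR-23b-3p changed by 0.08 with shared reads kept, and its interval (0.01 to 0.15) then lay off 0. Without the member pairs 59 of 218 pairs met the 0.5 limit. The median absolute log2 change was 0.29, and 42 pairs exceeded the change of miR-27a-3p against miR-23a-3p. This comparison was chosen after the member values were seen, and its pairs share arms, many of them from large clusters.

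**Figure D3:**
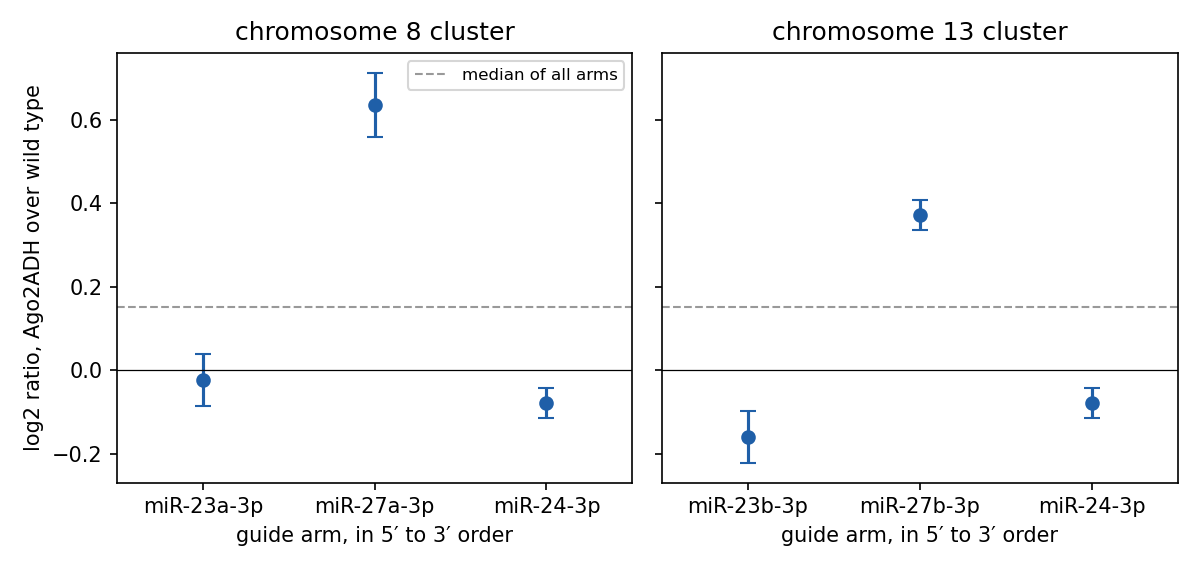
Log2 ratio of Ago2ADH to wild type with 95% counting intervals for the guide arms of each cluster in the order of transcription, with the median of all arms (0.15) as a dashed line. miR-27a-3p (0.64) and miR-27b-3p (0.37) lie above that line and the flanking guides below it; miR-24-3p is the same value in both panels, since its reads cannot be split between the loci.

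The paralogs were separated by reads that occur in the hairpin of only 1 copy. Reads shared by both miR-23 hairpins were 15 to 19 nt long and made up 7.14% of miR-23 3p reads in wild type and 5.51% in Ago2ADH. These 614 and 445 reads carry the name mmu-mir-23b in the deposited table. Reads shared by both miR-27 hairpins were 1.87% and 1.70% of miR-27 3p reads.

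Without shared reads, miR-23a-3p had 4226 and miR-23b-3p 3754 reads in wild type, against 4165 and 3470 in Ago2ADH. The a copy was 53.0% (51.9 to 54.1) and 54.6% (53.4 to 55.7), for a log2 odds ratio of 0.09 (0.00170 to 0.183). With reads of 20 to 24 nt this interval held 0 (0.09, interval -0.00701 to 0.178). miR-27 was unequal between its copies, with 2248 reads of miR-27a-3p and 10430 of miR-27b-3p in wild type. The a copy was 17.7% (17.1 to 18.4) of miR-27 in wild type and 20.5% (19.9 to 21.1) in Ago2ADH, where the copies had 3496 and 13530 reads. Its log2 odds ratio was 0.26 (0.18 to 0.35). So miR-23 was split nearly evenly between the chromosome 8 and chromosome 13 copies, while most miR-27 came from chromosome 13.

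Misread bases could have moved reads between copies that differ by 1 base, so all 4 letters at the differing position were counted. Among 21-nt miR-27 reads, position 19 was T in 8479 and C in 2067 wild type reads, and A in 5 and G in 11. In Ago2ADH the counts were 10951, 3191, 6 and 17. Among 22-nt miR-23 reads, position 19 was T in 2553 and A in 2071 wild type reads, and C in 11 and G in 6. The letters that belong to neither copy were thus far rarer than either copy. Their counts do not measure misreads between the letters that tell the copies apart, such as C and T in miR-27, and these were not tested.

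The 5p arms were scarce throughout. miR-27b-5p had 77 reads in wild type and 71 in Ago2ADH, giving a log2 ratio of -0.12 (-0.60 to 0.37). miR-23a-5p had 32 and 27 reads, miR-27a-5p 29 and 25, miR-24-5p 11 and 15, and miR-23b-5p 6 and 2. These 4 arms were under the minimum of 100 reads. All 5p arms together had 155 and 140 reads (55.2 and 49.8 RPM), and their intervals all held 0.

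The share of the 5p arm was read within each miRNA. It was lower in Ago2ADH beyond counting error for 2 of the 5 members, while 39.3% of the 214 miRNA names with 200 or more reads and reads of both arms lay off 0 in either direction. For miR-27a it was 1.27% in wild type (0.855 to 1.82) and 0.710% in Ago2ADH (0.460 to 1.05), for a log2 odds ratio of -0.85 (-1.62 to -0.08). For miR-27b it was 0.716% and 0.511%, for a log2 odds ratio of -0.49 (-0.95 to -0.02), whose interval held 0 with reads of 20 to 24 nt (-0.38, interval -0.88 to 0.13). In both, the 5p counts were similar in the 2 libraries and the 3p counts were higher in Ago2ADH. For miR-23a the share was 0.752% and 0.644%, for miR-23b 0.137% and 0.0511%, and for miR-24 0.0840% and 0.121%, with intervals that held 0. All 5 members lay under the median 5p or 3p minor arm share of all names, which was 2.30% in wild type and 2.01% in Ago2ADH.

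The few miR-24-5p reads were used to ask which locus they came from. Between these 2 hairpins, 10 wild type reads matched Mir24-2 alone and 1 Mir24-1 alone, and in Ago2ADH 11 and 4. Of the Mir24-2 reads, 4 in wild type and 6 in Ago2ADH were 1 sequence of 16 nt with 4 genome matches. Those reads could also come from elsewhere in the genome. The Mir24-2 share was 90.9% (58.7 to 99.8) and 73.3% (44.9 to 92.2), which these counts do not tell apart (log2 odds ratio -1.45, interval -4.38 to 1.47). Among them, 2 reads in wild type and 1 in Ago2ADH lay before the annotated 5p arm of Mir24-2.

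Reads named for miR-24 also came from the opposite strand. Of the rows chosen by name, 15 sequences (33 reads in the wild type library, 22 in Ago2ADH) matched a member hairpin only as its reverse complement. Apart from 1 wild type read opposite Mir27b, they matched Mir3074-1 or Mir3074-2, the hairpins annotated on the other strand of Mir24-1 and Mir24-2. The most frequent is shown as DNA and was read 6 times in the wild type library, 10 times in Ago2ADH.
antisense read at the miR-24 loci: GTTCCTGCTGAACTGAGCCAGT
Of the reads named mmu-mir-24-1-star, 13 in wild type and 11 in Ago2ADH, only 1 and 4 lay on the Mir24-1 strand. Antisense reads were left out of all values above.

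Read lengths of the guide arms differed little between the libraries. An arm was called when the share of its most frequent length differed by 10 percentage points or more with an interval off 0. None of the 5 guide arms was called, against 3.17% of the 284 arms with 100 or more reads in each library. All 5 intervals held 0, while 33.8% of the 284 arms had one off 0. miR-27a-3p had the narrowest profile, with 91.9% of reads at 21 nt in wild type and 91.3% in Ago2ADH. miR-27b-3p had 79.5% and 79.2% at 21 nt, and miR-24-3p 83.2% and 82.7% at 22 nt. miR-23a-3p had 60.9% and 62.8% at 22 nt, and miR-23b-3p 47.8% and 49.96% at 22 nt. Main reads are shown as DNA with bases 2 to 8 in capitals, to set their 3′ ends beside the RefSeq entries.
miR-23a-3p, 22 nt: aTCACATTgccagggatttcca
miR-27a-3p, 21 nt: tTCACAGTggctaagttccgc
miR-27b-3p, 21 nt: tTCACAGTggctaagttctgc
miR-24-3p, 22 nt: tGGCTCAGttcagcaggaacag
The main miR-23a-3p read is 1 base longer than its RefSeq entry, and the others have the length of theirs. Its counts were 2553 in wild type and 2606 in Ago2ADH. The main reads of miR-27a-3p had 2067 and 3191 counts, of miR-27b-3p 8479 and 10951, and of miR-24-3p 10892 and 10264.

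The ratio of each guide was also read at each length, for reads at its main start. For miR-27a-3p it was 0.69 at 19 nt, 0.84 at 20 nt and 0.62 at 21 nt, and all 3 intervals lay above 0. For miR-27b-3p it was 0.43 at 19 nt, 0.47 at 20 nt and 0.37 at 21 nt, again with intervals above 0. At 18 nt it was 0.67 (0.25 to 1.10). At 16, 17 and 22 nt, with 76 reads or fewer per library, the intervals held 0. Reads of 18 nt or less at the main start do not differ between the a and b copies. They were counted for the b copy by name. For miR-23b-3p it was -0.30 at 20 nt and -0.10 at 22 nt, with intervals below 0, and 0.07 at 21 nt with an interval that held 0. Its -0.49 at 18 nt, also with an interval below 0, is from reads that miR-23a-3p could equally have given. For miR-23a-3p it was 0.11 at 20 nt, 0.03 at 22 nt and -0.17 at 23 nt. For miR-24-3p it was 0.03 at 20 nt, -0.01 at 21 nt, -0.09 at 22 nt and -0.63 at 23 nt, the last from 94 and 61 reads. The higher level of miR-27 was thus present at its 3 main lengths.

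The most short reads were counted for miR-23b-3p, by the names in the deposited table. Reads under 19 nt made up 14.7% of it in wild type and 12.1% in Ago2ADH, a difference of -2.64 points (-4.10 to -1.17), while in the other guide arms they were between 0.744% and 3.69%. The short reads of miR-23b-3p numbered 642 and 472. Reads found in both miR-23 hairpins, at 15 to 19 nt, numbered 614 and 445 and carry the name mmu-mir-23b. Most of these short reads could thus come from either hairpin. With only reads of 1 genome match, miR-23b-3p had a log2 ratio of -0.12. The percent of reads that would have to change length to turn 1 library's profile into the other's was 4.76 for miR-23b-3p, 2.52 for miR-23a-3p, 1.14 for miR-27b-3p, 1.05 for miR-27a-3p and 0.992 for miR-24-3p. The median of all arms was 4.03, and the value for miR-23b-3p includes the reads found in both hairpins.

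**Figure D4:**
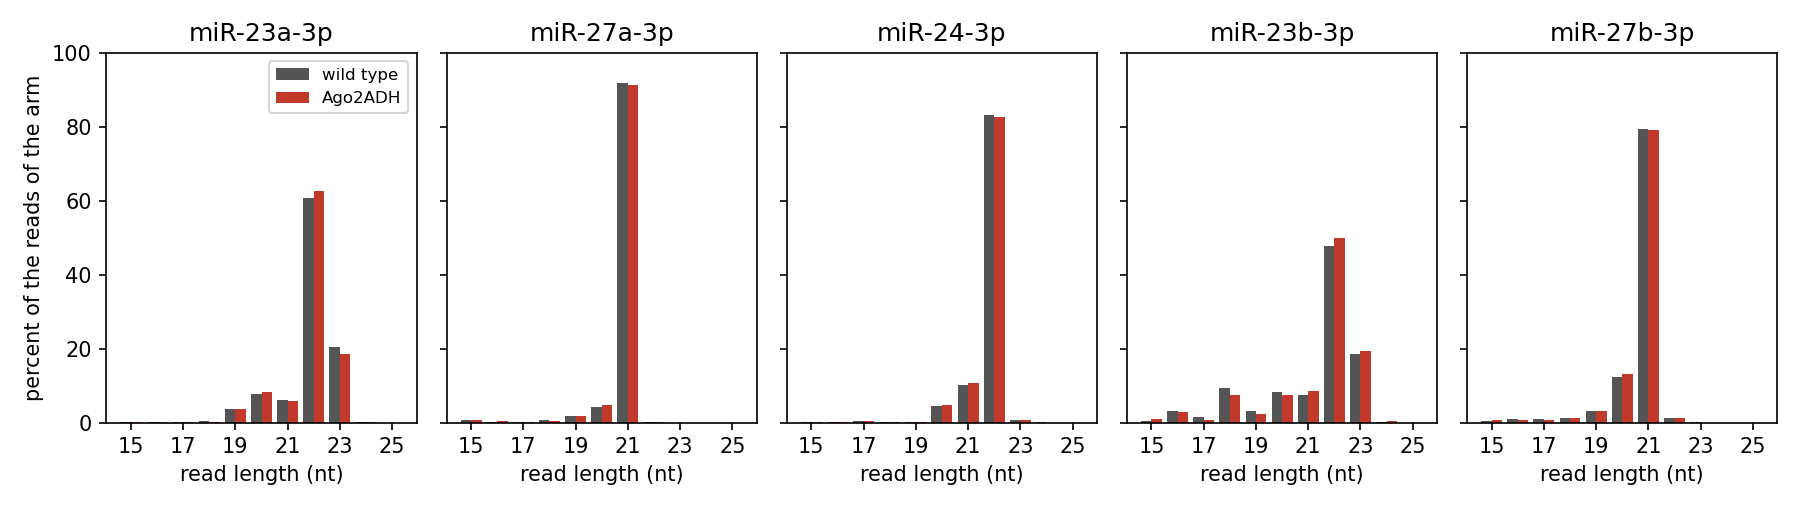
Percent of the reads of each guide arm at each length from 15 to 25 nt in wild type (grey) and Ago2ADH (red); lengths outside this range are not drawn. miR-27a-3p peaks at 21 nt with 91.9% and 91.3%, while miR-23b-3p is spread wider, with 47.8% and 49.96% at 22 nt. The reads of miR-23b-3p include short reads that occur in both miR-23 hairpins.

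The start of the guide, which sets the seed, was nearly constant. None of the 5 guide arms met the 10-point rule for the share at the main start, against 2.11% of the 284 arms. Reads at the main start were 99.0% of miR-24-3p in both libraries, 98.0% and 97.9% of miR-27a-3p, and 97.4% and 98.0% of miR-27b-3p. They were 95.9% and 96.4% of miR-23a-3p and 96.5% and 96.7% of miR-23b-3p. The interval of the difference lay off 0 only for miR-27b-3p (0.58 points, interval 0.20 to 0.97), as it did for 29.9% of all arms. Starts 3 bases inside the guide were the most frequent other start of miR-23a-3p, with 58 and 57 reads.

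Many member reads end in 1 base that the hairpin does not encode, and these are outside the miRNA class of the table, so they enter none of the counts above. They were counted where a hairpin-matching read of the arm was extended by 1 such base, and their share is of tailed and untailed reads together. A last base that was changed cannot be told from a base added to a shorter read. How adapters were trimmed is not given in the sources used here. None of the 5 guide arms met the 10-point rule, against 0.662% of 302 arms. Intervals lay off 0 for 2 of the 5, against 22.8% of all arms.

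miR-24-3p was the most tailed member, with 9091 of 22179 reads in wild type (41.0%, interval 40.3 to 41.6) and 8894 of 21309 in Ago2ADH (41.7%, interval 41.1 to 42.4). The median of all 302 arms was 12.5% and 12.4%. miR-24-3p ranked 22nd in wild type and 23rd in Ago2ADH. Most of its tails were 1 added U, 34.2% and 35.4% of reads, while the median of all arms for U was 4.89% and 4.82%. An added A made up 6.49% and 6.04%. Its main tailed read, shown as DNA with the added base in capitals, had 7295 reads in wild type and 7217 in Ago2ADH.
miR-24-3p with 1 added U: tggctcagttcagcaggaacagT
miR-23b-3p was tailed in 32.1% of reads in both libraries and miR-23a-3p in 22.4% and 21.2%, again mostly with U. miR-27b-3p was the least tailed guide, at 12.8% and 14.0%, a difference of 1.18 points (0.38 to 1.98).

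miR-27a-3p was the member whose tails differed most. Tailed reads were 653 of 2901 in wild type (22.5%, interval 21.001 to 24.1) and 1469 of 4965 in Ago2ADH (29.6%, interval 28.3 to 30.9), a difference of 7.08 points (5.08 to 9.04). This was the 8th largest increase of the 302 arms, and 5.63% of arms met a 5-point limit in either direction. The difference lay in added U, which went from 17.2% to 23.5% (6.34 points, interval 4.51 to 8.14), while added A was at 5.03% and 5.66% (0.63 points, interval -0.42 to 1.63). The main U-tailed reads are shown because both were more than 2-fold higher in Ago2ADH.
miR-27a-3p, 20 nt and 1 added U: ttcacagtggctaagttccgT
miR-27a-3p, 21 nt and 1 added U: ttcacagtggctaagttccgcT
The first had 344 reads in wild type and 714 in Ago2ADH (log2 ratio 1.05, interval 0.86 to 1.24), and the second 150 and 437 (1.54, interval 1.27 to 1.82). The corresponding reads of miR-27b-3p had 587 and 908 (0.63) and 271 and 455 (0.75).

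Levels with tailed reads added were computed after the tail shares were seen. Counting tailed reads changed the size of the miR-27a difference and of no other guide beyond its counting interval. With them miR-27a-3p had a log2 ratio of 0.77 (0.70 to 0.83), miR-27b-3p of 0.39, miR-23a-3p of -0.05, miR-24-3p of -0.07 and miR-23b-3p of -0.17. Tailed reads of miR-27a-3p alone were at 1.16 (1.03 to 1.30) and those of miR-27b-3p at 0.51 (0.42 to 0.61).

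**Figure D5:**
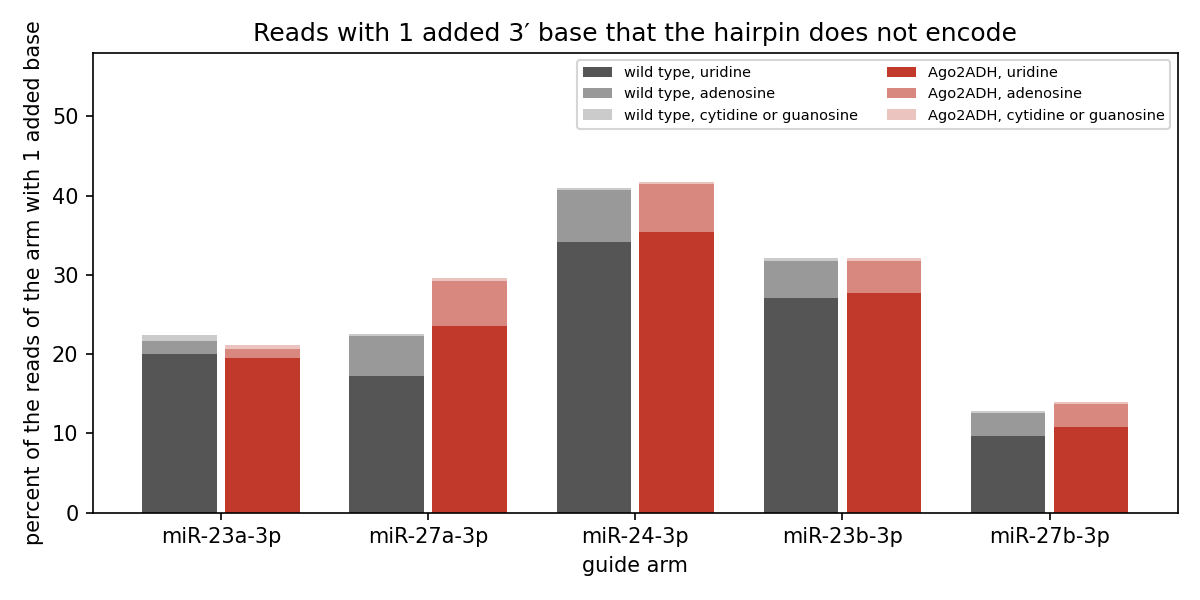
Percent of the reads of each guide arm, tailed and untailed together, that end in 1 added 3′ base the hairpin does not encode, for wild type (grey) and Ago2ADH (red), with shades for the added base. miR-24-3p is highest at 41.0% and 41.7%, and miR-27a-3p shows the gap between the libraries, 22.5% and 29.6%.

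The genes around the clusters left few reads. Fragments of 2010111I01Rik, the host of the chromosome 13 cluster, came to 113 reads in wild type against 141 in Ago2ADH, giving a log2 ratio of 0.43 (0.06 to 0.80) when scaled to all reads. It did not meet the 2-fold rule, which 1.81% of 5913 genes with 50 or more reads met. Fancc had 20 and 33 reads (0.83, interval -0.01 to 1.71), and Zswim4, the nearest coding gene to the chromosome 8 cluster, 13 and 22. Reads of 18 nt or more from Gm26532 numbered 0 and 1. These fragments may follow mRNA breakdown as well as mRNA level, which was not tested.

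The TGF-beta and BMP pathway, which the miR-23b cluster is known to act on through Smad mRNAs, was read from the same kind of fragments. Of 39 listed symbols 38 had reads and 25 had 50 or more. By the 2-fold rule none of the 25 was higher and 1 was lower, where 1.81% of all 5913 genes met the rule in either direction. The list's median log2 ratio was 0.00959, and that of all 5913 genes was -0.000495. Bmp6, a ligand that drives hepcidin expression in liver, fell from 47 to 14 reads (-1.64, interval -2.61 to -0.75). These came from only 18 and 9 distinct sequences, and 1 sequence of 19 nt gave 14 of the wild type and 4 of the Ago2ADH reads. The abundant members Ski, a repressor of Smad activity, and Tgfbr2, the type 2 TGF-beta receptor, had 124 and 119 reads (0.05, interval -0.33 to 0.42) and 91 and 113 reads (0.42, interval 0.01 to 0.84). Smurf2, a ubiquitin ligase that acts on Smads, had 83 and 98 reads (0.35, interval -0.09 to 0.79).

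The Smads and the activin receptor were picked after their values were seen. Smad3, which transduces TGF-beta signals, had 114 reads in wild type and 56 in Ago2ADH, spread over 100 and 49 distinct sequences (-0.92, interval -1.40 to -0.44). Smad4, the shared partner of receptor-activated Smads, had 78 and 83 reads (0.20), and Smad5, a BMP Smad, 43 and 37 (-0.11), both with intervals that held 0. The inhibitory Smad6 had 46 and 64 reads (0.59, interval 0.02 to 1.16). Acvr1b had 28 and 39 reads (0.59, interval -0.15 to 1.34). Of the 25 genes tested, 3 had intervals below 0 and 3 above, where 15.1% of all genes tested had an interval off 0 in either direction and 7.17% had one below 0.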

How the data were processed

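The authors deposited raw read counts per distinct sequence for 2 libraries, with a class, a name and a number of genome matches per the file headers. Which aligner, genome build, annotation versions or trimming were used is not given in the sources available. The table held 0 columns of other samples. Members and lists were chosen with earlier results of these data known. miRNA-class reads were placed by exact match on 1174 hairpins of GENCODE M21 (GRCm38), using hairpins of the same name where there are any, and the arm was set by which side of the hairpin's middle the read's middle lay. Locus copies were summed. Counts were scaled to total miRNA reads, so that 3 reads are about 1.07 RPM, and mRNA fragments to all reads. Ratios have exact conditional binomial intervals, shares exact Clopper-Pearson intervals, differences of shares Newcombe intervals, and odds ratios Woolf intervals with 0.5 added to each count. The statistics were run on simulated counts with counting error only, where arm ratios were scaled by the arms left unchanged. The scaling used here and the spread between libraries were thus not tested. All member arms were named, with the next arms in wild type level, the called genes of each list and, for the TGF-beta and BMP list, its 3 most read genes, and host genes. The rule also asked for the 3 most read genes of the marker lists, which are given by sums and counts instead. One gene of the lists is not reported here and enters no list count. Alternatives used TMM (edgeR 4.0.16) and median-of-ratios (DESeq2 1.42.0) scaling, other totals, lengths, starts, minimums and limits. Python 3.11.15, scipy 1.17.1 and R 4.3.3 were used.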

Additional observations from a re-analysis of the deposited data

How the results depend on the processing

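No paired analysis was possible because each genotype has 1 library and the labels carry no replicate numbers. No member arm was called under any alternative except the 1.5-fold limit, which called 1, miR-27a-3p, in the main scaling. Its log2 ratio was 0.48 with median-of-ratios, 0.49 with TMM and 0.43 without the 10 most abundant arms, all under 1.5-fold. The median log2 ratio of the members (-0.05) was 0.0606 scaled to all reads, -0.20 with median-of-ratios, -0.19 with TMM and -0.25 without the 10 most abundant arms, where the median of all arms was 0.26, -1.27e-08, 0.00880 and -0.05. Scaled to all reads, miR-23a-3p turned to 0.0882 and miR-24-3p to 0.0330. The log2 odds of the a copy was 0.0857 for miR-23 with reads of 20 to 24 nt, where its interval held 0. Counting distinct sequences instead of reads gave -0.19 for miR-23 and -0.29 for miR-27, and 0.00187 and 0.11 for miR-27a over miR-23a and miR-27b over miR-23b, all with intervals that held 0 because few sequences were left. With the main start only, the Mir24-2 share of miR-24-5p had a log2 odds of 0.74 (interval -5.16 to 6.64). That start is a position in the Mir24-2 hairpin, and no reads of Mir24-1 were left. The value comes from the 0.5 added to each count and does not compare the loci, though it is among the 10 changes of direction counted below. The members whose 5p share lay off 0 were 2 in the main comparison, 1 with reads of 20 to 24 nt, 1 with the main start only and 0 with distinct sequences. With distinct sequences the 5p odds turned to 0.47 for miR-23a, -0.0194 for miR-24 and 0.23 for miR-27a, and with reads of 20 to 24 nt to -0.41 for miR-24. The 5-point limit called tails of 1 member. The 1.5-fold limit called 4 genes of the TGF-beta and BMP list in place of 1. The share of all genes that met this limit was not counted, so the 4 cannot be set against a background. Too few distinct sequences per arm were left for the arm ratios, lengths, starts and tails, so those were not run. Of all 134 values recomputed, 10 changed direction and 6 kept it but lost the interval off 0; 31 moved beyond the counting interval, or as counts by over 1.5 times, without changing direction, and 87 did none of these. Scarce 5p arms are limited by depth.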
